A study of Homo sapiens with 12 samples.

Results

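HG3 is a human B-cell line, and its labels name chronic lymphocytic leukaemia, in which mature B cells build up in blood and marrow. The libraries described here are the 4 of the 12 in the series that the labels assign to HG3. In 2 of them the cells carried mutant U1 small nuclear RNA (g.3A>C), and in 2 they carried wild-type U1. The labels give no drug, dose or time for either group, and they do not say how mutant U1 was introduced, whether the cells were 1 clone, or whether the wild-type cells carried a control construct. The 2 libraries of each group are technical replicates by the series text, so every p-value below measures the spread between technical replicates and not that between cultures. JVM3 and MEC1, the other lines of the series, were sequenced in the same design and are used only to ask where HG3 differed. For splice junctions the authors' table has 2 HG3 columns of 6, 1 for each U1 status. Their names carry no replicate letter, so they were taken as pooled over replicates, and junction values have no replicate check.

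U1 is the small nuclear RNA that opens splicing. Its 5' end pairs base by base with the donor, the 5' splice site where an intron begins, from the last bases of the exon to the sixth base of the intron. Base 3 of U1 faces intron base 6. An adenine at that place of U1 can pair with thymine in the DNA letters of the intron, and a cytosine can pair with guanine. Wild-type U1 RNA begins as follows, in DNA letters of RNU1-1 from GENCODE release 29, with the base that the study mutated, position 3 counted from the 5' end, in a capital:
RNU1-1: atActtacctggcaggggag

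The HG3 libraries held 30109919 to 35828168 reads counted in genes, and the 2 HG3 junction columns held 16361103 (mutant) and 16657677 (wild type) junction reads. The first principal component took 86.5% of the variance among the 4 libraries and separated mutant from wild type. Reads outside annotated features were 23.65% and 24.93% of all entries in the mutant libraries and 21.24% and 23.39% in the wild-type libraries, and mitochondrial transcripts took 1.1% and 1.0% against 1.27% and 1.23% of gene counts. The part that these shares play in the results was not tested. The B-cell label was checked on MS4A1, which encodes the B-cell surface protein CD20 and stood at 1360 and 1298 CPM (reads of a gene scaled to a common library size) in mutant and 1225 and 1220 in wild-type libraries. Of the 8 T-cell markers tested, LCK and ZAP70 were above 20 CPM, both of which malignant B cells can express, while CD3E, a defining T-cell gene, had 0.031 CPM in 1 mutant library and 0 in the other 3. Summed over each whole list, T-cell markers ranged from 81.98 to 85.52 CPM in mutant and from 99.3 to 103.61 in wild-type libraries, and those of natural killer cells from 7.45 to 7.7 against 8.27 to 10.46. Monocyte markers summed to 14.35 and 15.2 against 11.03 and 11.49, fibroblast markers to 7.12 and 6.19 against 4.66 and 4.88, epithelial markers to 10.02 and 11.34 against 6.23 and 7.9, and erythroid markers to 2.97 and 2.45 against 3.28 and 3.19.

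U1 was the targeted RNA, and which of its gene copies was targeted is not known here. RNU1-1, a gene that encodes U1, stood at 249.6 and 165.1 CPM in the mutant libraries. In the wild-type libraries it stood at 29.46 and 28.83 CPM (8069 and 5386 against 1050 and 868 counts). The groups did not overlap, and the mutant libraries also differed from each other by more than the wild-type ones did. The log2 fold change was 2.83 with a standard error (SE) of 0.20 (adjusted p = 4.02e-05). The rise was larger in HG3 than the mean of the other lines by 2.16 on the log2 scale (adjusted p = 0.00156), where the log2 fold changes were 0.45 in JVM3 and 0.89 in MEC1. Reads of mutant and wild-type U1 are counted alike, so the amount of mutant U1 is not known. Reads that match several near-identical U1 copies alike were set apart as not unique, so which copy was read is not known either. The file lists 128 U1 genes, and those other than RNU1-1 summed to 31.79 and 29.3 CPM in mutant and 36.76 and 38.89 in wild-type libraries. Among the other 26 tested, RNU1-3 rose with a log2 fold change of 2.98, RNU1-4 with 1.28, RNVU1-32 with 1.38 and RNU1-27P with 1.27. RNVU1-14, RNVU1-6, RNVU1-24, RNVU1-34, RNVU1-21, RNVU1-15 and RNVU1-18, which are variant U1 genes, fell by 0.46 to 2.14 on the log2 scale, and 15 did not pass the test. Calls of 3 of these genes rested on single libraries: adjusted p was 0.147 for RNU1-27P without mutant replicate 1, 0.106 for RNVU1-15 without wild-type replicate 2 and 0.126 for RNVU1-18 without mutant replicate 2 (0.0781 and 0.0599 without wild-type replicate 1 or 2). With DESeq2 it was 0.12 for RNVU1-18 and 0.0517 for RNVU1-21.

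Splicing was read as the share of reads at an intron's end, the acceptor, that came from each donor. A junction counted as gained in HG3 when its share was at least 20 percentage points higher in the mutant column, with at least 20 acceptor reads in each column, and as lost when at least 20 points lower. By that rule 772 of 61458 junctions were gained (1.26%) and 771 were lost (1.25%), at 867 acceptors and in 736 named genes. No test was made, since each status has 1 column. Intervals below are 95% Wilson intervals and cover counting error only. Of the gained junctions 194 had a share under 5% in wild type. In 391 the donor lay more than 500 bases nearer the acceptor than its main competitor and in 163 more than 500 bases farther, while in 218 the donors were within 500 bases of each other, 95 nearer and 123 farther.

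Part of the table switches columns on and off without regard to U1. Among all junctions 587 had at least 100 reads in 1 column and 0 in another, many of them in abundant genes such as EEF1A1, RPS6 and RPL13A, and they included 34 read in HG3 mutant and not wild type and 40 the reverse. The largest single gain was of this kind. It was a junction on chromosome 5 (hg19 chr5:149781336-149781402) with 1757 of 1757 acceptor reads in mutant and 0 of 1587 in wild type, and the wild-type MEC1 column also used it at 65.47%. No gene was matched to it, and no weight is placed on it or its like.

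The 12 named genes with the largest gains included regulators of signalling, transport and RNA. In RNF34, which encodes a ubiquitin ligase, the junction at chr12:121839898-121840545 (hg19, as all positions here) took 90 of 94 acceptor reads in mutant HG3, 95.74% (89.56% to 98.33%), and 1 of 46 in wild type, 2.17% (0.38% to 11.34%). The gained donor lay 1877 bases nearer the acceptor than the annotated donor it displaced. It was also used with wild-type U1 in the other lines, in 23.53% of 34 acceptor reads in JVM3 and 13.33% of 30 in MEC1. In MYSM1, a histone H2A deubiquitinase gene, a donor 362 bases from the annotated one (chr1:59160879-59165295) went from 2.99% of 67 reads to 82.95% of 88. In CREM, which encodes a transcription factor that responds to cyclic AMP, an annotated junction (chr10:35416495-35437296) was read 192 times among 251 in mutant, 76.49%, and 0 times among 66 in wild type, which allows a share of up to 4.55%. In all 3 genes the intervals of the mutant and wild-type columns were far apart, but the junctions were chosen for the largest gains.

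ABCD3 encodes a transporter of the peroxisome membrane. Its unannotated junction at chr1:94948574-94948726 took 71.43% of 63 reads in mutant and 0 of 132 in wild type, which allows up to 2.27%. In KIZ, a gene for a protein of the centrosome, the junction chr20:21225402-21227117 rose from 4.35% of 23 reads to 86.67% of 30, on the lowest read numbers of the 12 beside RABGEF1 (1 of 26 reads to 18 of 24). FLVCR1, a transporter gene linked to haem and choline, rose from 13.82% of 304 to 82.01% of 189, and GBA2, a glucosylceramidase gene, from 9.43% of 53 to 75.51% of 49. SPPL2A encodes an intramembrane protease that B cells need to clear the invariant chain of MHC class II, and its junction chr15:51017520-51018270 rose from 24.46% of 184 to 92.24% of 232. IL17RB, a receptor gene for interleukin 25, rose from 22.35% of 85 to 88.48% of 165. EWSR1, which encodes an RNA-binding protein, used a donor 51 bases farther from the acceptor (chr22:29695270-29695589) in 894 of 1251 reads in mutant, 71.46% (68.9% to 73.9%), against 65 of 1060 in wild type, 6.13% (4.84% to 7.74%).

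**Figure D1:**
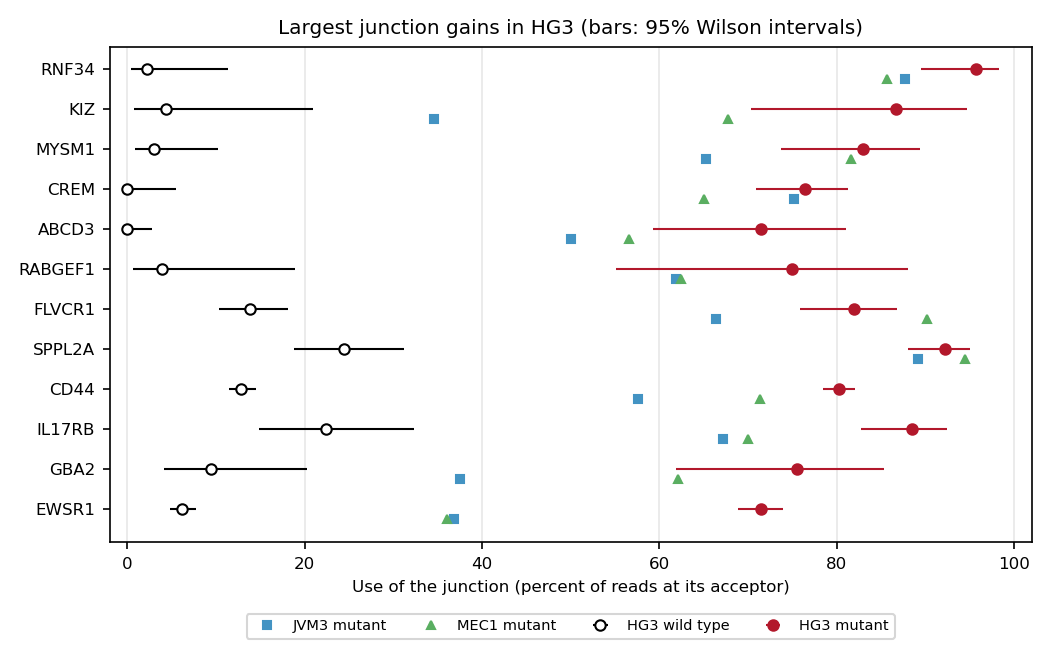
Share of acceptor reads (x axis, percent) taken by the gained junction in each of the 12 named genes with the largest gain in HG3. Open circles give the authors' HG3 wild-type column and red circles the HG3 mutant column, with 95% Wilson intervals. Squares and triangles give the mutant columns of JVM3 and MEC1, and in EWSR1 and KIZ the JVM3 value (36.79% and 34.62%) sits far to the left of that of HG3 (71.46% and 86.67%).

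CD44, MSI2 and POLD1 are genes that the published study of this U1 mutation took up. CD44 encodes the receptor of hyaluronan that helps leukaemia cells home and survive. Its junction chr11:35232996-35236399 took 1481 of 1844 acceptor reads in HG3 mutant, 80.31% (78.44% to 82.07%), and 241 of 1872 in wild type, 12.87% (11.43% to 14.47%), a gain of 67.4 points beside 45.8 in JVM3 and 57.1 in MEC1. The junction that skips ahead to the same acceptor from the donor 21384 bases upstream (chr11:35211612-35236399) fell from 86.22% to 16.87%. In MSI2, an RNA-binding protein gene, an unannotated junction (chr17:55448352-55478740) rose from 3 of 278 reads, 1.08%, to 117 of 276, 42.39%. In POLD1, which encodes the catalytic subunit of DNA polymerase delta, the annotated junction chr19:50912923-50916683 fell from 91.95% of 149 reads to 67.44% of 43, and the largest gain at an acceptor of the gene was 12.9 points, below the rule.

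Junctions read in 1 column alone were also more frequent in the mutant. With at least 10 reads in one HG3 column and 0 in the other, 565 junctions were read in mutant alone and 306 in wild type alone. Of those placed in a gene, 360 of 491 and 206 of 269 were not in GENCODE 29. Reads in the mutant columns of both JVM3 and MEC1, and in none of their wild-type columns, were found for 86 of the 565. The same pattern was found for 5 of the 306. Reads in the wild-type columns of both lines and in neither mutant column were not counted. Unannotated introns made up 30.6% of the gained junctions placed in a gene (223 of 728), 9.1% of the lost ones (66 of 723) and 30.2% of the other tested junctions. Gained and lost junctions met mirrored rules, and the unannotated share was higher among the gained ones. The other tested junctions are not a like baseline for either set. By the rule a gained junction has a sizeable share in mutant and a lost junction in wild type, while the others needed no such share.

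The donors themselves are the sequences that mutant U1 would meet. The file's build is hg19, for which no genome was used, so donor letters were read from GENCODE 29 transcripts, on GRCh38, in which the intron's start is kept as exon, with genes matched by intron lengths. This gave 13857 of 54148 donors, so the readable donors are those in or next to annotated alternative exons. The set shown was chosen for the largest gains with readable donors, for genes whose level also changed, and for exceptions, and IRF1 and CD22 were added after their values were seen, for their roles in B cells. Each line gives 3 exon bases and 6 intron bases, 5' to 3', with intron base 6 in a capital.
KIZ gained: tgtgtaagG
KIZ lost: atggtgagA
EWSR1 gained: agtgtaagG
EWSR1 lost: cgggtaggT
EIF2AK1 gained: atagtaagG
EIF2AK1 lost: aaggttgtC
MAPK8IP3 gained: caggttttG
MAPK8IP3 lost: taggtaagT
IRF1 gained: gctgtaagG
IRF1 lost: ggggtaagA
CD22 gained: tgggtaagG
CD22 lost: caggtaaaA
SPPL2A gained: aaagtaagG
SPPL2A lost: aaggtaggG
ABCD3 gained: caggtataG
TARS1 gained: actgtaagG
BRD1 gained: agtgtaagC
CD44 lost: ccagtaagG

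In KIZ, EWSR1, EIF2AK1, MAPK8IP3, IRF1 and CD22 the gained donor had guanine at intron base 6 and the lost donor had another base. SPPL2A had guanine in both. BRD1 and CD44 did not follow this pattern: the gained BRD1 donor had cytosine, and the CD44 donor whose share fell had guanine. No lost BRD1 donor is shown to set beside the gained one. Shares are per acceptor, and the CD44 share passed to a donor 21384 bases nearer the acceptor, so the donor itself need not have been used less. IRF1 encodes a transcription factor of the interferon response, and its gained donor rose from 1.7% to 32.12% of acceptor reads. CD22 encodes an inhibitory receptor of B cells, and its gained donor rose from 54.71% to 86.92% at one acceptor.

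Over all readable donors the bases at intron position 6 differed between gained and lost junctions. Guanine was there in 138 of 224 gained donors, 61.6% (55.1% to 67.7%), in 30 of 177 lost donors, 16.9% (12.1% to 23.2%), and in 22.7% of 13290 donors of the other tested junctions. Thymine took 21.4%, 49.2% and 42.0% of the same sets. The contrast was largest among introns not in the annotation, where 56 of 70 gained donors, 80.0% (69.2% to 87.7%), had guanine, beside 22.5% of 4067 other unannotated donors. The share also followed the size of the change, from 21.4% of 10728 donors that moved by less than 5 points to 30.5% at 5 to 10 points, 39.5% at 10 to 20, 59.2% at 20 to 30 and 68.4% at 30 or more. At the other positions the largest gap between gained and lost donors was that of adenine at intron base 4, which took 54.0% of gained, 67.8% of lost and 59.2% of other donors. Guanine at intron base 5 took 78.6%, 71.2% and 71.0%, and guanine at the last exon base took 77.2%, 79.7% and 77.5%.

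**Figure D2:**
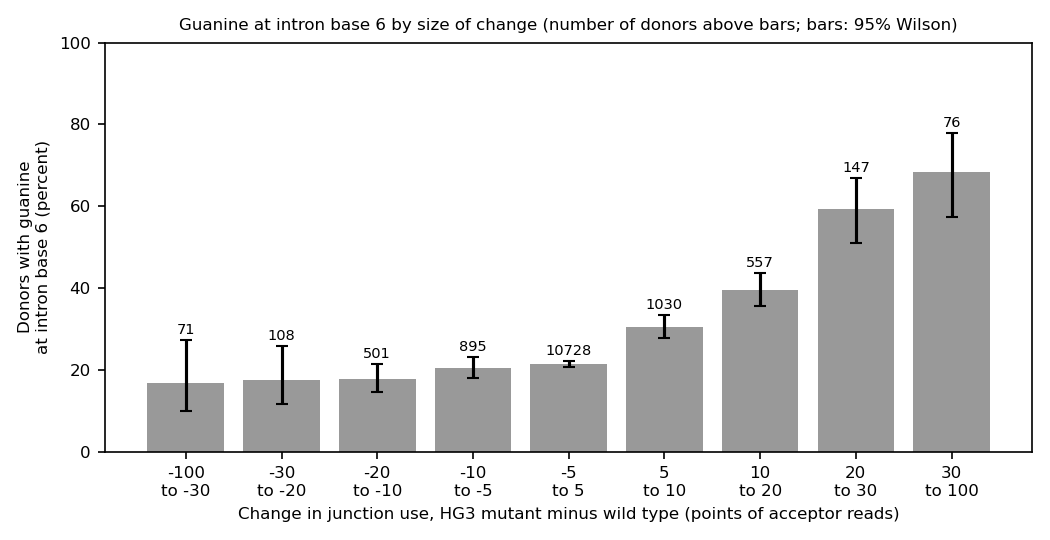
Percent of readable donors with guanine at intron base 6 (y axis, from 0), by the change in use of the junction between the HG3 mutant and wild-type columns in points of acceptor reads (x axis), with 95% Wilson intervals and the number of donors above each bar. The share is 16.9% to 20.4% among junctions that lost use and climbs to 68.4% among those that gained 30 points or more.

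Where a gained and a lost junction shared an acceptor and both donors were readable, 74 pairs in 72 genes could be compared within a gene. In 45 the gained donor had guanine at intron base 6 and the lost donor did not, and in 5 the order was reversed. Both had guanine in 7 and neither in 17. Thymine was at that base in 34 of the lost and 12 of the gained donors. A base at a donor is a description of the sequence and does not show that mutant U1 bound there.

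In the other lines most HG3 gains had the same sign. Of those with enough reads, 543 of 648 were higher with mutant U1 in JVM3, with a median change of 13.2 points, and 562 of 640 in MEC1, with a median of 18.4. The same junctions had medians of 26.8 and 26.5 points in HG3, but they were chosen on the HG3 values, so these medians carry no weight beside the others. By the same rule JVM3 had 506 gains (0.796%) and MEC1 880 (1.38%). Measured in both other lines were 589 of the HG3 gains, of which 152 passed 20 points in both, 275 in neither, and 62 stayed under 5 points in both. Since each line has 1 column per status, no difference between lines was tested for junctions. Among junctions with at least 50 acceptor reads in all 6 columns, the EWSR1 gain of 65.3 points in HG3 stood beside 31.6 in JVM3 and 32.4 in MEC1. ABI2, an adaptor gene of actin regulation, gained 37.0 points at chr2:204240855-204244931 in HG3 and 16.7 in MEC1 and lost 9.5 in JVM3. OXLD1 gained 38.5 points at chr17:79632614-79633548 in HG3 and 12.96 in MEC1 and lost 6.8 in JVM3.

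Gene levels changed widely in HG3. Of 21270 genes tested, 3971 rose (18.7%) and 4174 fell (19.6%) at an adjusted p under 0.05, and by at least 2-fold 935 rose (4.4%) and 480 fell (2.26%). The libraries of the groups did not overlap in 8136 of the 8145 called genes. The calls rest on the same libraries, and the share over all genes tested was not counted, so this is no further check. Changes were mostly small. The median log2 fold change of all genes was 0.01 and the quartiles were -0.27 and 0.29. Among the 10877 genes with a mean of at least 5 CPM in either group, 2835 rose (26.1%) and 3500 fell (32.2%), shares that the gene lists below can be set beside. The balance of rises and falls depended on the scaling of the libraries. Rises made up 48.8% of calls with the trimmed mean factors used here and 60.7% with upper-quartile factors (5049 rose and 3272 fell), which shifted the median of all genes to 0.07.

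Of the 15 genes with the largest rises, all but RNU1-1, described above, had a mean under 2 CPM in wild-type HG3. TMEM151B, which encodes a membrane protein, stood at 14.2 and 15.02 CPM in mutant and 0.533 and 0.299 in wild-type libraries (log2 fold change 5.09, SE 0.20, adjusted p = 7.19e-25). KLK15, a serine protease gene of the kallikrein family, stood at 6.527 and 6.805 against 0.2245 and 0.2989 CPM (log2 fold change 4.67, SE 0.31, adjusted p = 7.63e-17). CHIT1, the chitotriosidase gene of activated macrophages, stood at 8.291 and 9.441 against 0.4208 and 0.5978 CPM (log2 fold change 4.13, SE 0.22). In each the mutant libraries lay far above both wild-type libraries, but the genes were chosen for large rises without overlap. ABCA9, a lipid transporter gene, rose 9.87-fold to 17.69 and 18.45 CPM, and NEFM, a neurofilament gene, 8.94-fold to 6.28 and 6.04 CPM. DNAI2 and DNAH6, genes for dynein arms of cilia, rose 7.93-fold and 7.43-fold. AKAP12, which encodes a scaffold for protein kinase A, rose 6.34-fold. C6orf52, ZNF418, MROH6, FAM186B, the IFT122 pseudogene IFT122P3 and TTC36-AS1 rose 5.83-fold to 12.2-fold. TTC36-AS1 is antisense to TTC36, and no source used here says whether the counting used strand, so its reads cannot be told from those of its partner.

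Genes under 0.5 CPM in wild type that reached at least 1 CPM in mutant were led by TMEM212. It had 86 counts in the mutant libraries together and 0 in both wild-type libraries, at least 28.9-fold higher when 3 counts over the group are taken as the floor. C14orf132 stood at 4.424 and 3.954 against 0.028 and 0.166 CPM. RUNDC3A-AS1 stood at 2.227 and 2.268 against 0 and 0.133 CPM, and the pseudogene OR2B8P at 1.299 and 1.349 against 0.028 and 0. All 3 are low genes in which few reads set the wild-type level.

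**Figure D3:**
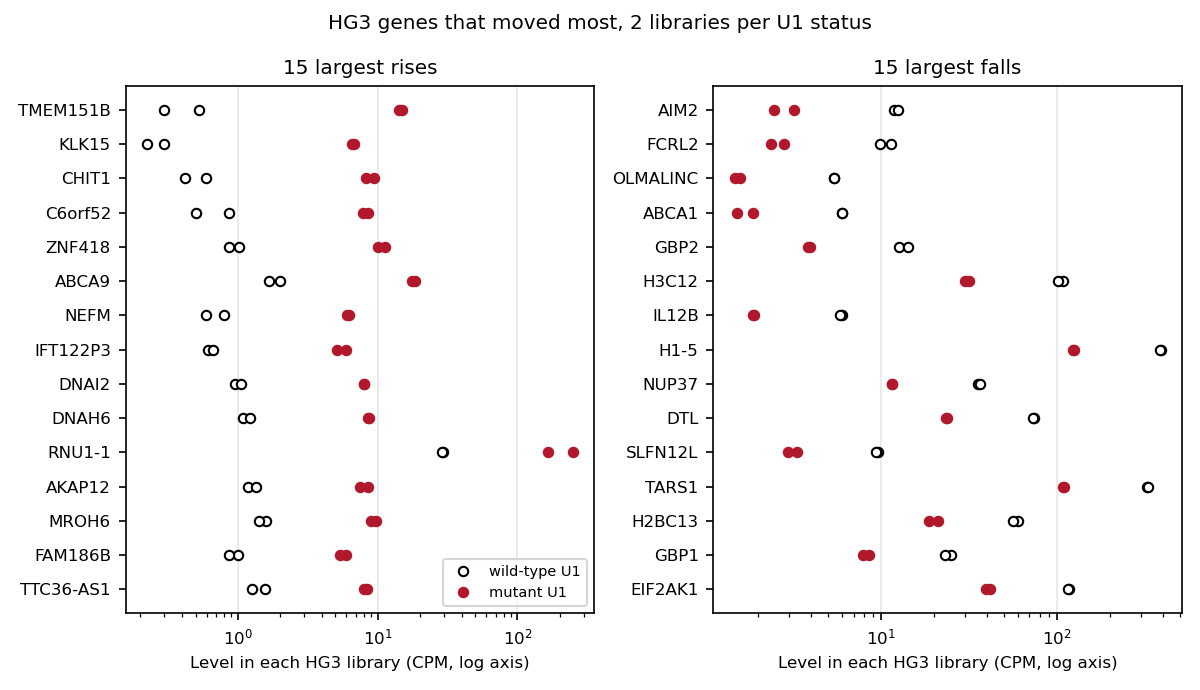
Level of the 15 genes with the largest log2 rise (left) and the 15 with the largest log2 fall (right) in each HG3 library, in CPM on a log axis, with open circles for the 2 wild-type and red circles for the 2 mutant libraries. The genes were chosen so that the libraries of the groups do not overlap. Most genes that rose start near 1 CPM, while the genes that fell include abundant ones such as H1-5 and TARS1.

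The 15 genes with the largest falls have varied known roles. AIM2, a sensor of DNA in the cytosol, stood at 3.186 and 2.452 CPM in mutant and 11.84 and 12.55 in wild-type libraries (log2 fold change -2.11, SE 0.12, adjusted p = 1.71e-19). FCRL2, an inhibitory receptor gene of B cells, stood at 2.382 and 2.82 against 9.876 and 11.36 CPM (log2 fold change -2.03, SE 0.17). GBP2 and GBP1, guanylate-binding proteins induced by interferon, fell to 0.29 and 0.34 of wild type. ABCA1, the transporter that exports cholesterol, fell from 5.976 and 6.044 to 1.516 and 1.87 CPM, and IL12B, a cytokine subunit gene, from 6.032 and 5.845 to 1.887 and 1.87 CPM. TARS1, the threonyl-tRNA synthetase gene, fell from 327.2 and 330.3 to 109.8 and 108.9 CPM (log2 fold change -1.59, SE 0.04, adjusted p = 2.25e-32). EIF2AK1, the kinase gene through which haem shortage reaches translation, fell from 118.2 and 116.3 to 39.69 and 41.56 CPM. NUP37, a nuclear pore gene, DTL, which encodes a substrate receptor of a ubiquitin ligase in S phase, SLFN12L and the long noncoding RNA OLMALINC fell to 0.28 to 0.33 of wild type. H3C12, H1-5 and H2BC13 were also among the 15, and they belong to the histone genes below.

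Several genes changed in both level and splicing. TARS1, with the gained donor shown above, used it in 0.22% of acceptor reads in wild type and 23.58% in mutant. EIF2AK1 used its gained donor in 1.41% and 28.92%. NUP37, LIG1 and DENND2D fell in level with junction gains of 33.9, 31.4 and 40.3 points, and BRD1, a gene for a reader of acetylated histones, rose from 42.65 and 43.37 to 135.3 and 137.5 CPM with a gain of 34.9 points. MAPK8IP3, a gene for a scaffold of kinesin transport, rose from 74.46 and 69.91 to 199.8 and 210.1 CPM with a gain of 48.3 points. Of 734 tested genes with a junction past 20 points, 33.4% rose and 27.2% fell, beside 25.8% and 31.0% of 7279 genes with tested junctions but none past 20 points. The medians of their log2 fold changes were 0.03 and -0.02. Among 57 genes with a junction past 50 points, 20 rose and 16 fell.

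Of the study genes, CD44 stood at 713.5 and 712.7 CPM in mutant and 487.1 and 482.4 in wild-type libraries (log2 fold change 0.56, SE 0.03, adjusted p = 4.15e-18). POLD1 stood at 19.92 and 20.23 against 52.97 and 51.24 CPM (log2 fold change -1.38, SE 0.06, adjusted p = 1.51e-23). Neither gene's libraries overlapped. MSI2 stood at 142.1 and 145.6 against 131.4 and 134.4 CPM (log2 fold change 0.11, SE 0.04, adjusted p = 0.0298), a call that was lost under 7 of 11 other settings, with an adjusted p of 0.0506 to 1.0 in those.

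Genes of cell division fell in nearly every tested member. Of 46 tested genes of DNA replication 45 fell and 0 rose, 12 of them by at least 2-fold, with a median log2 fold change of -0.82 beside 0.01 for all genes. Of 43 genes of mitosis all 43 fell, 23 by at least 2-fold, with a median of -1.01. MCM3, a subunit of the replicative helicase, went from 212.2 and 210.9 to 92.06 and 91.5 CPM, and RRM2, a subunit of ribonucleotide reductase, from 126.3 and 134.3 to 56.18 and 57.96. LIG1, the DNA ligase of replication, went from 95.11 and 92.62 to 36.66 and 38.28 CPM. TOP2A, the topoisomerase of chromosome condensation, went from 546.6 and 560.7 to 264.6 and 258.3 CPM, and BIRC5, which encodes survivin, from 72.47 and 73.06 to 28.71 and 27.19. In each of these 5 genes both mutant libraries were below both wild-type libraries. The replication gene POLD2 did not pass the test (log2 fold change -0.02), and the smallest fall in the mitosis list was that of BUB3 (-0.12).

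Histone genes whose expression is tied to DNA replication fell likewise. All 23 tested fell, 13 by at least 2-fold, with a median of -1.11. H1-5, a linker histone gene, went from 390.6 and 389.3 to 123.6 and 125.2 CPM, and H4C3 from 230.3 and 228.0 to 89.12 and 88.95. H2AC6 and H2BC12 fell least, both with a log2 fold change of -0.21. Histone genes of 1 type have near-identical copies. Reads that match several copies alike were set apart as not unique, so the level of a copy may miss reads. Among 20 inhibitors of the cell cycle and genes of quiescence, 6 rose and 5 fell. RBL2, a pocket protein of resting cells, rose from 184.0 and 187.0 to 284.9 and 296.4 CPM, and CDKN1C, a CDK inhibitor gene, had a log2 fold change of 2.29. RBL1, CDKN2C, CDKN2D, RB1 and CDKN1B fell, the latter by 0.38 on the log2 scale. In these bulk libraries a smaller share of dividing cells and less of each RNA per cell cannot be told apart.

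Against the other lines, these falls were larger in HG3. The difference between the HG3 change and the mean change of JVM3 and MEC1 was below 0, with an adjusted p under 0.05, in 45 of the 46 replication genes, 42 of the 43 mitosis genes and 21 of the 23 histone genes, and above it in 0, while over all genes 11.4% had a lower and 8.94% a higher response in HG3. Median log2 fold changes of the replication list were -0.36 in JVM3 and 0.09 in MEC1, those of the mitosis list -0.42 and 0.1, and those of the histone list -0.4 in both. MEC1 thus showed the histone fall without a fall in the medians of the other 2 lists.

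**Figure D4:**
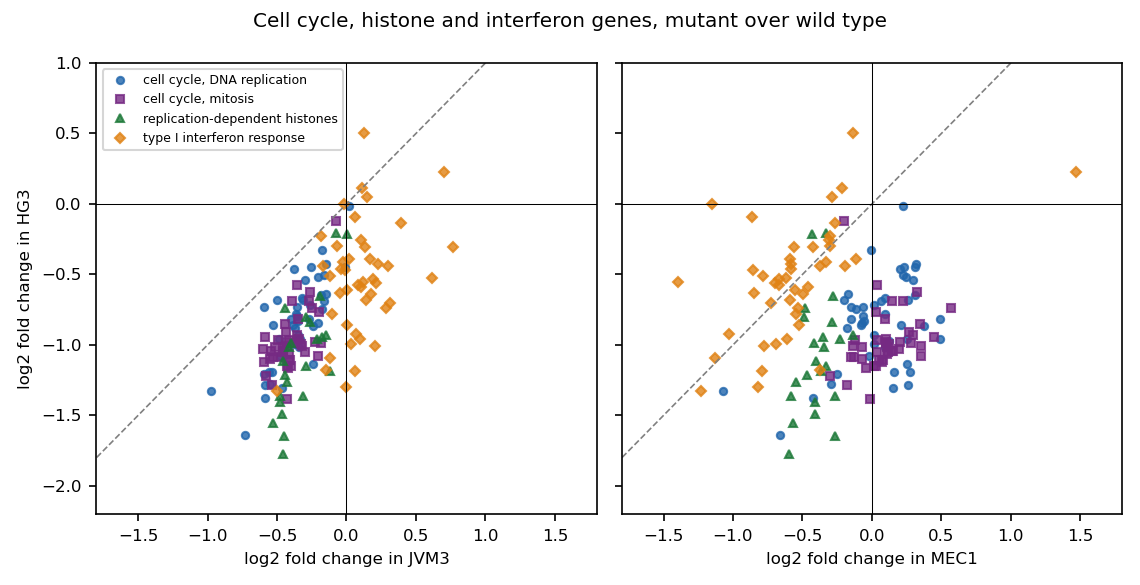
Log2 fold change of each tested gene of the replication, mitosis, histone and interferon lists in HG3 (y axis) against that in JVM3 (left) and in MEC1 (right). The dashed line marks equal change, and most cell division and histone genes lie below it, while interferon genes lie near it in MEC1 and below it in JVM3.

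Genes induced by type I interferon were lower too. Of 44 tested 38 fell and 2 rose, 6 fell by at least 2-fold, and the median log2 fold change was -0.53. ISG15, the ubiquitin-like modifier, went from 75.36 and 72.4 to 34.21 and 34.94 CPM, and OAS3, which makes the signal for RNase L, from 78.61 and 78.05 to 34.31 and 35.1. IFIH1, the RNA sensor MDA5, and SP100 rose, with log2 fold changes of 0.51 and 0.11. The medians were 0.09 in JVM3 and -0.58 in MEC1, and the response was lower in HG3 than the mean of both in 29 of the 44 and higher in 3. CXCL10, a chemokine gene that interferon and NF-kB induce, had a log2 fold change of -1.41.

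Targets of NF-kB, the transcription factor that Epstein-Barr virus and B-cell activation switch on, were mixed. Of 31 tested 18 rose and 7 fell, with a median of 0.22. CD80 and CD86, the co-stimulatory ligands for T cells, rose from 158.1 and 161.5 to 302.3 and 310.4 CPM and from 100.4 and 101.5 to 183.6 and 183.4. TNFAIP3, an inhibitor of the pathway, rose from 566.7 and 560.4 to 762.7 and 745.3 CPM. LTB, TNF and LTA, cytokine genes of the same list, fell, with log2 fold changes of -1.31, -0.64 and -0.52. Host genes known to be induced by Epstein-Barr virus rose in 12 of 21 and fell in 4, among them CCND2, the D-type cyclin of these cells, from 1608 and 1546 to 987.6 and 976.0 CPM. MHC class II genes rose in 10 of 17 and fell in 0, by small amounts. HLA-DMA, a peptide loading factor gene, and HLA-DRB1 had log2 fold changes of 0.37 and 0.36. Reads that match HLA-DRB1 and a paralog alike were set apart as not unique, so its level may miss reads.

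Targets of p53 rose in 21 of 29 and fell in 2, with a median of 0.27. TP53INP1, a stress-induced nuclear protein gene, rose from 81.34 and 82.33 to 135.1 and 135.4 CPM, and BBC3, which encodes the death activator PUMA, from 33.7 and 32.48 to 51.38 and 51.43. GDF15, a secreted stress cytokine, rose from 10.97 and 11.72 to 19.4 and 20.51 CPM. CDKN1A, the p21 gene, changed little, with a log2 fold change of 0.24, and none of the called members reached 2-fold. In the BCL2 family 6 rose and 6 fell of 17, 35.3% each, beside 26.1% and 32.2% of genes of at least 5 CPM. BMF and BBC3, both activators of cell death, rose with log2 fold changes of 0.59 and 0.63, and BID fell by 0.37 on the log2 scale.

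Genes of B cells and plasma cells changed in both directions, with shares of falls from 33.3% to 47.6% beside 32.2% of genes of at least 5 CPM. In the B-cell identity list 13 fell and 3 rose of 30. FCRLA went from 24.86 and 23.94 to 11.76 and 10.64 CPM, and IKZF1, the Ikaros gene, from 91.41 and 92.33 to 61.44 and 62.87, while IRF8 rose from 104.2 and 103.8 to 148.6 and 147.0. In B-cell receptor signalling 13 fell and 5 rose of 31, against 10 and 10 with upper-quartile factors. SYK, the kinase next to the receptor, went from 99.71 and 99.13 to 47.92 and 49.17 CPM. In the plasma cell programme 10 fell and 4 rose of 21, with a median of -0.35. JCHAIN, the joining chain of secreted antibodies, went from 450.6 and 465.5 to 260.3 and 256.7 CPM, XBP1 from 133.4 and 140.0 to 83.83 and 84.17, and CD38 from 24.1 and 27.66 to 10.8 and 10.02. SLAMF7 rose, from 193.8 and 191.4 to 282.5 and 281.1 CPM. Of 15 germinal centre genes 5 fell, a share near that of all such genes, and 1 rose, and of 24 homing genes 10 fell and 7 rose. ITGA4, an integrin subunit for adhesion in bone marrow, went from 266.0 and 281.7 to 154.1 and 157.6 CPM.

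Splicing factor genes changed in both directions. Proteins of the U1 particle and its partners fell in 12 of 23 and rose in 2, with a median of -0.18. U2SURP fell by 0.53 on the log2 scale, SNRPD1 by 0.39 and SNRPB by 0.35, and SNRNP70, the U1-70K gene, rose by 0.32. In the U2 and tri-snRNP list 12 fell (29.3%) and 8 rose (19.5%) of 41, both below the shares of genes of at least 5 CPM (32.2% and 26.1%). Its member SF3B1, a gene recurrently mutated in chronic lymphocytic leukaemia, went from 572.8 and 585.0 to 445.4 and 433.7 CPM. SR and hnRNP proteins fell in 19 of 44 and rose in 7. With upper-quartile factors the counts of the last 2 lists became 17 rises against 9 falls and 14 against 16, so no direction is given for them. Genes of nonsense-mediated decay rose in 9 of 18 and fell in 2. SMG6, the endonuclease of that pathway, went from 92.0 and 84.92 to 160.3 and 159.6 CPM. Host genes of small nucleolar RNAs, whose spliced RNAs that pathway degrades, rose in 13 of 21 and fell in 1, SNHG1 from 147.6 and 152.2 to 217.2 and 220.7 CPM.

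Stress and metabolic lists moved by smaller amounts. In the integrated stress response 21 fell and 8 rose of 40, with a median of -0.11. ASNS, asparagine synthetase, went from 47.11 and 46.66 to 31.99 and 28.87 CPM, while ATF4, the factor that drives the list, had a log2 fold change of -0.06 and did not pass the test. In the unfolded protein response 10 fell (35.7%) and 6 rose (21.4%) of 28, near the 32.2% and 26.1% of genes of at least 5 CPM. With upper-quartile factors 8 fell and 9 rose. Glycolysis and hypoxia genes fell in 18 of 28 and rose in 3, with a median of -0.18, LDHA from 606.9 and 631.6 to 449.5 and 440.7 CPM. Heat shock genes fell in 10 of 21 and rose in 3. Both of these lists had medians above 0 in the other lines, 0.09 and 0.1 for glycolysis and 0.08 and 0.09 for heat shock, and the response was lower in HG3 in 19 of 28 and 14 of 21. Of the 15 mitochondrial transcripts 4 fell (26.7%) and 1 rose (6.7%), both below the shares of genes of at least 5 CPM. MT-CO3 went from 3348 and 3300 to 2377 and 2201 CPM. The remaining lists are given beside rises of 26.1% and falls of 32.2% among genes of at least 5 CPM, and their counts moved with the scaling. Of 39 genes of MYC and ribosome biogenesis 16 rose and 8 fell (22 and 4 with upper-quartile factors), of 23 of Notch signalling 7 and 1 (10 and 0), and of 30 driver genes of chronic lymphocytic leukaemia 10 and 7 (13 and 4). Cholesterol synthesis had 4 rises and 6 falls of 24 (7 and 4 with upper-quartile factors), cleavage and polyadenylation 8 and 4 of 20 (8 and 1), and telomere maintenance 5 and 6 of 17.

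**Figure D5:**
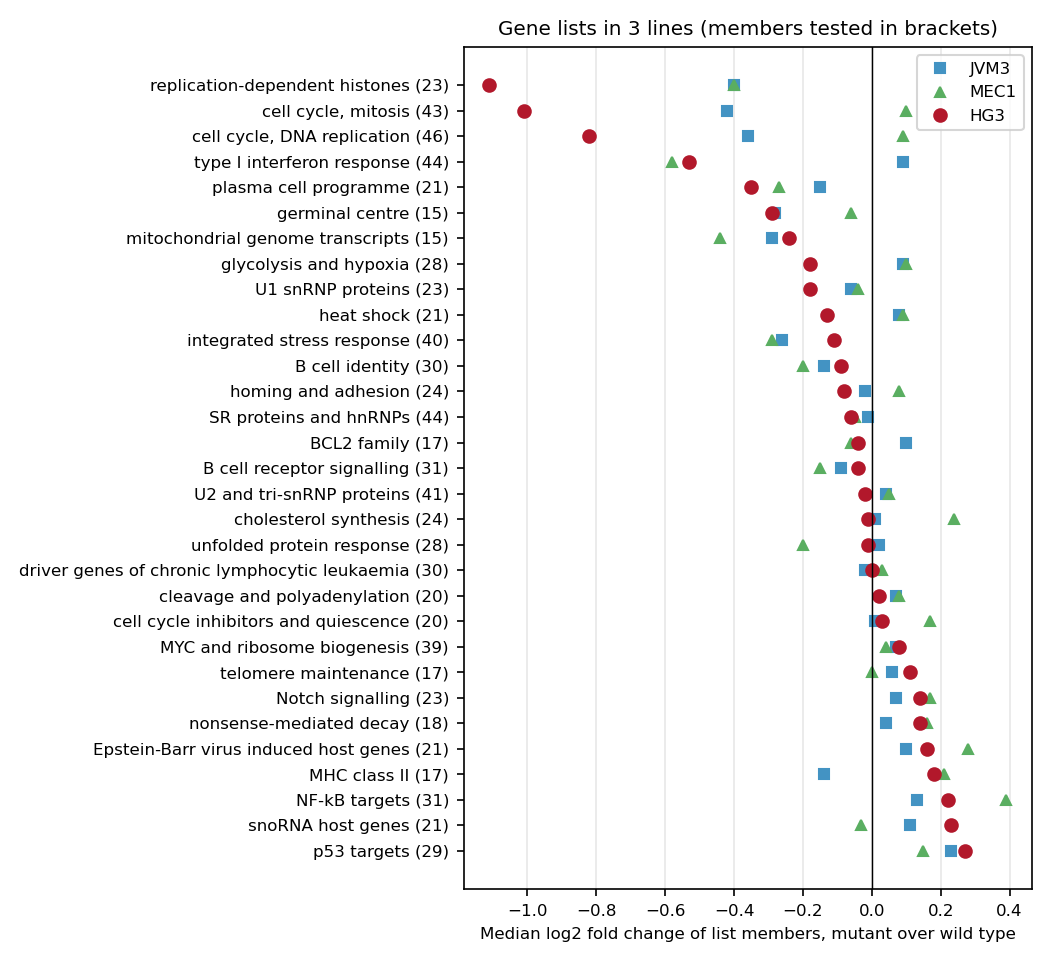
Median log2 fold change, mutant over wild type (x axis), of the members of each gene list in HG3, JVM3 and MEC1, with the number of members tested in brackets, for lists of at least 10 tested members other than markers of other cell types. Among the lists shown, histone, mitosis and replication lists stand lowest in HG3, at -1.11, -1.01 and -0.82, and the p53 list stands highest, at 0.27.

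Single genes differed from the other lines in both directions. CHIT1, NEFM, ABCA9 and AKAP12 responded more in HG3, by 2.45, 2.4, 2.18 and 2.06 on the log2 scale. KLK15 did so as well, but its mean was at most 0.218 CPM in every group of the other lines. FAM106A rose 1.93-fold in HG3. It was nearly absent from the other lines (0 CPM in mutant and 0.0299 in wild-type JVM3, 0.024 and 0.086 in MEC1), where it did not pass the test (adjusted p = 0.223 in both). It has near-identical copies, and reads that match several of them alike were set apart as not unique. Another 3 genes with a difference had low levels in MEC1. CADPS2, a gene of vesicle release, stood at 0 CPM in mutant and 0.0928 in wild-type MEC1, with log2 fold changes of 0.08 in HG3 and -0.07 in JVM3. FBN2, a fibrillin gene, stood at 0.0748 and 0 CPM in MEC1, and LHFPL3-AS2 at 0.581 and 0.0272, beside log2 fold changes of -0.24 and -0.31 in HG3. CLLU1-AS1 and NCR3LG1, the ligand of an activating receptor on natural killer cells, fell in HG3. CLLU1-AS1 had log2 fold changes of 1.95 in JVM3 and 1.65 in MEC1. NCR3LG1 had 0.87 in MEC1, and in JVM3, at 0.142 and 0.0653 CPM, it did not pass the test (adjusted p = 0.345). The fall of CLLU1-AS1 in HG3 (log2 fold change -0.44, adjusted p = 0.0111) was lost with DESeq2 (0.161) and without mutant replicate 1 (0.0518), mutant replicate 2 (0.0767) or wild-type replicate 2 (0.176). IL12B, GBP1 and ABCA1 fell in HG3 by 1.66, 1.55 and 1.82 on the log2 scale, and their values in the other lines lay between -0.33 and 0.28, with IL12B under 0.08 CPM in MEC1.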

How the data were processed

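RNA was measured in 4 HG3 libraries of 12. Libraries were stranded and depleted of ribosomal RNA, from Trizol extracts, per the labels' protocols. The submitters' processing notes name STAR 2.5.4b, HTSeq 0.9.1 and the builds hg19 and GRCh37. No source used here gives the annotation release or says whether counting used strand. The gene table holds raw counts deposited by the authors for 57820 genes, and lines that name no gene (17.72% to 24.93% outside features, 0.9% to 1.06% ambiguous and 29.02% to 34.92% not unique) were left out of library sizes. The authors' junction table gives counts of spliced reads in 6 columns. Totals and CPM follow from these counts.

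Genes were tested with edgeR 4.0.16 in R 4.3.3 (quasi-likelihood F-test, robust, trimmed mean factors, filterByExpr) on all 12 libraries as 6 groups, so that the spread is shared, with Benjamini-Hochberg adjusted p over 21270 genes. The contrast was HG3 mutant minus HG3 wild type, and, for differences, that minus the mean contrast of JVM3 and MEC1. The common biological coefficient of variation was 3.43%. Technical replicates differed by more than counting noise (mean chi-square per gene of 2.28 and 3.95 in HG3), so each was kept as a separate library. Scripts were tested on simulated data.

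Junction clusters were matched to genes of GENCODE release 29 by intron lengths (at least 3 introns within 50000 bases, at least 2 times the next best offset, offsets within 200 bases counted together). This placed 37870 of 42349 clusters (89.4%), against 39 (0.09%) when offered a wrong chromosome. No coordinates were converted. An intron is called annotated if that release lists it. Of readable donors 98.2% of annotated and 98.9% of unannotated ones began with the usual intron letters, and the others were left out.

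The members and the gene lists were chosen with earlier results of these data known. Genes were named by rule: the 15 largest rises and falls among called genes of at least 5 CPM whose groups did not overlap, 5 genes near silent in wild type, U1 genes, the study genes, up to 4 called members of each list by p, and the 8 highest and 8 lowest differences from the other lines. Other list members are named as examples, chosen after their values were seen. Junctions were named by size, the 12 largest gains in named genes.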

Additional observations from a re-analysis of the deposited data

Results flagged for a closer look

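The response to mutant U1 differed between HG3 and the mean of the other lines in 4328 of 21270 genes by edgeR's quasi-likelihood test of the difference itself (Benjamini-Hochberg adjusted p under 0.05). Differences are HG3 minus the mean of JVM3 and MEC1, in log2 units. The response was higher in HG3 for KLK15 (4.38), FAM106A (3.39), CHIT1 (2.45), CADPS2 (2.43), NEFM (2.4), ABCA9 (2.18), RNU1-1 (2.16) and AKAP12 (2.06). It was lower in HG3 for FBN2 (-2.68), LHFPL3-AS2 (-2.31), CLLU1-AS1 (-2.25), SIRPB1 (-1.94), IL12B (-1.86), GBP1 (-1.53), NCR3LG1 (-1.53) and ABCA1 (-1.5). Of the study genes, CD44 differed by 0.41, MSI2 by 0.37 and POLD1 by -0.87. The values of KLK15, FAM106A and SIRPB1 rest on means under 0.4 CPM in both other lines, and those of CADPS2, FBN2, LHFPL3-AS2 and IL12B on means under 0.6 CPM in MEC1, so their size depends on the prior count. The difference of SIRPB1 did not pass without HG3 wild-type replicate 1 (adjusted p = 0.0515).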

How the results depend on the processing

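The counts of genes that rose or fell, the count of genes whose response differed from the other lines and the rise of RNU1-1 stayed within 1.5 times, or on the same side of the threshold, under other size factors, no filter on low counts, DESeq2 and each HG3 library left out. The rises, falls and RNU1-1 also did so with the 4 HG3 libraries alone, where differences from the other lines cannot be computed. A test against a fold of 1.2 was stricter and gave 1655 rises, 1897 falls and 1179 differences from the other lines. DESeq2 called 886 genes at 2-fold or more in place of 1415. Without 1 HG3 library at a time, 2958 to 3234 genes rose and 3454 to 3647 fell. A replicate block within each line gave 4365 rises and 4506 falls and changed no direction among named genes. The numbers do not pair the samples, since deviations of same-numbered libraries correlated at 0.069, 0.078 and 0.238 in HG3, JVM3 and MEC1 over 11011 genes. With at least 50 acceptor reads 382 junctions were gained and 372 lost, with a rule of 10 points 2762 and 2776, and with 30 points 282 and 281. Junctions read in mutant alone numbered 1841 with at least 5 reads and 203 with at least 20 (1206 and 117 in wild type alone). List counts moved by over 1.5 times in 53 of 76 cases under the fold of 1.2 and in 70 of 760 under the other settings. Among named genes 9 without a call changed sign when 1 HG3 library was left out. Their log2 fold changes then ranged from -0.13 to 1.45 for RNU1-16P, -0.103 to 1.17 for RNU1-28P, -0.0785 to 1.13 for RNU1-11P, -0.21 to 1.97 for RNU1-91P, -0.56 to 0.0597 for RNU1-100P, -0.77 to 0.33 for RNVU1-7, -0.299 to 0.41 for RNU1-73P, -0.12 to 0.12 for RNU1-103P (-0.0076 with no filter) and -0.0129 to 0.16 for CADPS2. The causes were not tested. Junctions with 20 acceptor reads have wide intervals, and U1 copies other than RNU1-1 had few counts.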
